A study of Mus musculus with 38 samples.

Results

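Translation initiation and elongation factors are the proteins that load messenger RNA and the first transfer RNA onto the ribosome and then move the ribosome along the message. Their transcripts were measured by bulk RNA sequencing in the medial prefrontal cortex of mice in 38 libraries. The set held the genes whose mouse symbol starts with Eif and a digit of the initiation factor series or with Eef1 or Eef2, and whose mean was at least 50 raw counts over the 38 libraries. Pseudogenes and genes of chromosomes X and Y were left out. Of 57010 gene IDs in the count table, 79 carried such a symbol and 60 met the rule. Of the other 19, 10 were pseudogenes, 4 lay on X or Y (Eif1ax, Eif2s3x, Eif2s3y and Eif2c5) and 5 fell below 50 counts (Eef1akmt3, Eef1akmt4, Eif3j2, Eif4e1b and Eif4ebp3). Just inside the threshold stood Eef2kmt with a mean of 66.4 counts and Eif4ebp1 with 76.5, and just outside it Eif3j2 with 15.1. The rule used no contrast, and all 60 members passed the expression filter of every fit, so none was lost to low counts.

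The mutant mice carried the genotype SSTCre:γ2f/f, in which Cre recombinase under the somatostatin promoter acts on a floxed γ2 allele. The control mice carried SSTCre alone, so Cre is shared by every group. Somatostatin is known as a marker of a small class of cortical interneurons, whereas whole tissue was measured. Mice underwent chronic variable stress (CVS) for 21 days, with tissue taken 24 hours after the last stressor, or were left without stress (NS). Among males there were 4 mutant CVS, 3 mutant NS, 6 control CVS and 5 control NS libraries. Among females there were 5 of each kind. The labels used here give no age.

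Initiation starts when eIF2 bound to GTP carries the initiator transfer RNA to the small ribosomal subunit together with eIF1, eIF1A, eIF5 and the large eIF3 complex. The cap-binding eIF4E, the scaffold eIF4G and the helicase eIF4A bring the messenger RNA. Kinases that phosphorylate eIF2α slow initiation by trapping the exchange factor eIF2B, 4E-binding proteins sequester eIF4E, and eEF2 kinase slows elongation by phosphorylating eEF2. In neurons these switches are known for their part in synaptic plasticity and memory. They act mainly on proteins, whereas transcript levels were measured here.

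Many genes of the translation machinery start with a stretch of pyrimidines, the terminal oligopyrimidine tract by which mTOR signalling controls their translation. The 4 starts below are shown because they belong to the 2 most abundant members, a pair of paralogs, and to 2 subunits of eIF3, whose levels are set beside those of ribosomal protein genes further on. RefSeq promoter windows of GRCm38.p6 (250 bases before to 50 after a start) were found for 48 of the 60 members. The sequences run 5′ to 3′ on the gene strand from position −40 of the annotated start, with runs of C followed by at least 7 C or T in capitals.
Eef1a1, chr9:78481698-78481764, minus strand: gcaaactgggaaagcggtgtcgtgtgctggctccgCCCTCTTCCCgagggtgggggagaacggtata
Eef1a2, chr2:181156989-181157055, minus strand: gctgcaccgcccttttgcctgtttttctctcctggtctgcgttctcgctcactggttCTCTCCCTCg
Eif3f, chr7:108934375-108934441, plus strand: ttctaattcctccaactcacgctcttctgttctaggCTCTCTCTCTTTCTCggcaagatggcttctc
Eif3l, chr15:79075183-79075249, plus strand: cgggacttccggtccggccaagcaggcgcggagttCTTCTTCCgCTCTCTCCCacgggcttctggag

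Such a run lay within 30 bases of a start in 12 of the 48 members with a window. It lay there in 35 of 64 cytosolic ribosomal protein genes (54.7%) and in 20.6% of the 27025 genes of the table, or 18.2% of its 32851 starts. Another word searched, over the whole window, was CACGTG, the palindrome bound by Myc and related factors, which reads the same on both strands and can share only its first base with a pyrimidine run. It was present in 12 of the 48 members, in 6 of 64 ribosomal protein genes (9.38%) and in 8.09% of all genes (7.15% of starts). Of the 10 eIF3 subunits with a window, the run was found in 4 (Eif3f, Eif3k, Eif3l and Eif3m) and not in Eif3a, Eif3b, Eif3c, Eif3d, Eif3g and Eif3j1, nor was it found in Eef1b2. These matches describe the letters of the windows and are not mapped sites. Among genes of the eIF4F subunits, the word was found in Eif4a1, Eif4g1 and a start of Eif4e. It was not found in Eif4a2, in Eif4g3 or at the other start of Eif4e. The windows below were taken from members that hold the word, namely those eIF4F genes, Eef2 and Eif5a2, with CACGTG in capitals.
Eif4a1, chr11:69672587-69672632, minus strand: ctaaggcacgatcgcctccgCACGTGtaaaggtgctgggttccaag
Eif4g1, chr16:20672653-20672698, plus strand: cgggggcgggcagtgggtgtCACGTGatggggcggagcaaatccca
Eif4e, chr3:138527020-138527065, plus strand: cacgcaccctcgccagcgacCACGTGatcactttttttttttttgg
Eef2, chr10:81176568-81176613, plus strand: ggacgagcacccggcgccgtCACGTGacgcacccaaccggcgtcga
Eif5a2, chr3:28781115-28781160, plus strand: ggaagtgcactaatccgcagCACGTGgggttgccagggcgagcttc

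Total counts ranged from 17.64 M to 27.51 M (21.06 ± 2.28 M, SD, n = 38). The 60 members together took 0.963 ± 0.0164% of counts in males (n = 18) and 0.917 ± 0.0194% in females (n = 20), a little less than the 75 cytosolic ribosomal protein genes (1.09 ± 0.0712% and 1.08 ± 0.0543%). All 5 markers of cortical glutamatergic neurons were above 1 CPM (counts per 1000000) in every group, with summed medians of 2286 to 2490 CPM. A single ID without a symbol took 4.21 to 7.83% of counts in female libraries and at most 0.406% in male ones, and mitochondrial transcripts took 3.26 to 4.08% in females and 5.13 to 6.66% in males. Levels were therefore not compared between the sexes. The level of Cdhr1, a gene known from photoreceptors and olfactory bulb mitral cells, lay between 1.70 and 5.20 CPM in all but 3 libraries. It was 25.8 CPM in male mutant NS replicate 2, 27.5 CPM in replicate 3 of that group and 16.6 CPM in male control CVS replicate 1. The predicted gene Gm12663 lay between 1.15 and 3.30 CPM in the other 16 mutant libraries and at most at 0.415 CPM in the 21 control libraries, but had 0 counts in male mutant CVS replicate 1, which allows up to 0.156 CPM (3 counts, counting error only). The comparisons that include males were also fitted without the 3 libraries of high Cdhr1 and, separately, without male mutant CVS replicate 1. In edgeR both left 0 members called in each, except 1 (Eif4g2) in the pooled stress comparison without the 3 libraries. In bulk tissue, fewer cells of a type and less RNA per cell cannot be told apart.

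The elongation factors stood at the top of the set. Levels are compared between genes as CPM per kb of exonic length. Eef1a1 and Eef1a2, the paralogs that deliver aminoacyl transfer RNA to the ribosome, were the highest members, with 879 ± 36.8 and 599 ± 25.4 CPM per kb in males and 810 ± 34.3 and 544 ± 19.8 in females. Eef1a2 is known as the form of neurons and muscle, which replaces Eef1a1 in mature neurons. Eef2, which drives translocation, followed with 362 ± 15.5 in males and 327 ± 9.23 in females. Its kinase Eef2k stood at 5.66 ± 0.573 and 5.37 ± 0.485 CPM per kb in males and females, so the mRNA of the target was 64.0 and 60.9 times that of the kinase. Among the subunits of the exchange factor of eEF1A, Eef1g reached 107 CPM per kb in males, Eef1b2 45.5 and Eef1d 17.3. Eef1e1, a protein of the multisynthetase complex, stood at 6.44 CPM per kb.

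Factors of start codon selection spanned a 32.9-fold range in males and a 36.4-fold range in females. Eif1, which guards the choice of the start codon, was highest with 203 ± 11.9 CPM per kb in males and 192 ± 7.10 in females, and its paralog Eif1b stood at 50.31 and 50.02. Eif5, the GTPase activator of eIF2, stood at 41.8 and 38.5. Eif2s1, which encodes the eIF2α subunit, stood at 10.9 ± 0.747 and 11.1 ± 0.649, and Eif2s2, which encodes eIF2β, at 22.5 and 22.3. The 5 subunits of eIF2B ran from Eif2b3 (2.43 in males, 2.58 in females) to Eif2b5 (20.0 and 19.5). Of the 4 kinases of eIF2α, Eif2ak1 was highest (17.0 ± 0.848 in males, 16.2 ± 1.02 in females). Eif2ak3, the kinase of the endoplasmic reticulum, followed (5.77 and 5.49), then Eif2ak4, which senses uncharged transfer RNA (2.68 and 2.22), and Eif2ak2, which senses double-stranded RNA (1.16 ± 0.132 and 1.02 ± 0.226). Eif2ak2 was the lowest member of the set per kb in both sexes.

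The 13 eIF3 subunits, parts of a single complex, kept closer together. Per kb, 12 of them lay between Eif3l (27.98 in males, 26.56 in females) and Eif3h (72.2 and 73.2), and the loosely bound Eif3j1 lay below them (7.75 ± 0.534 and 6.66 ± 0.307). In the eIF4 group the helicase Eif4a2 was highest (171 ± 5.01 and 166 ± 6.68), and Eif4h, a cofactor of the helicase (126 and 134), and Eif4a1 (114 ± 6.44 and 120 ± 5.31) followed. Eif4g1, the main scaffold, stood at 51.1 ± 1.86 and 51.3 ± 1.29, above the cap-binding Eif4e (20.7 ± 0.862 and 19.2 ± 0.805) and its relatives Eif4e2 (6.91 and 6.88) and Eif4e3 (5.04 and 4.39). Of the 4E-binding proteins, Eif4ebp2, known as the form that prevails in brain, stood at 12.2 ± 0.766 and 12.4 ± 0.592. Eif4ebp1 stood at 1.69 ± 0.386 and 1.94 ± 0.364, and Eif4ebp3, with a mean of 3.87 counts, fell below the count minimum. Eif5a, the hypusine-bearing factor, stood at 110 and 115, its paralog Eif5a2 at 11.4 and 10.1, and Eif6, which keeps the ribosomal subunits apart, at 14.51 and 16.01. The lowest members beside Eif2ak2 were Eif4ebp1 and Eef2kmt, the methyltransferase of eEF2 (1.44 ± 0.248 and 1.47 ± 0.232).

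**Figure D1:**
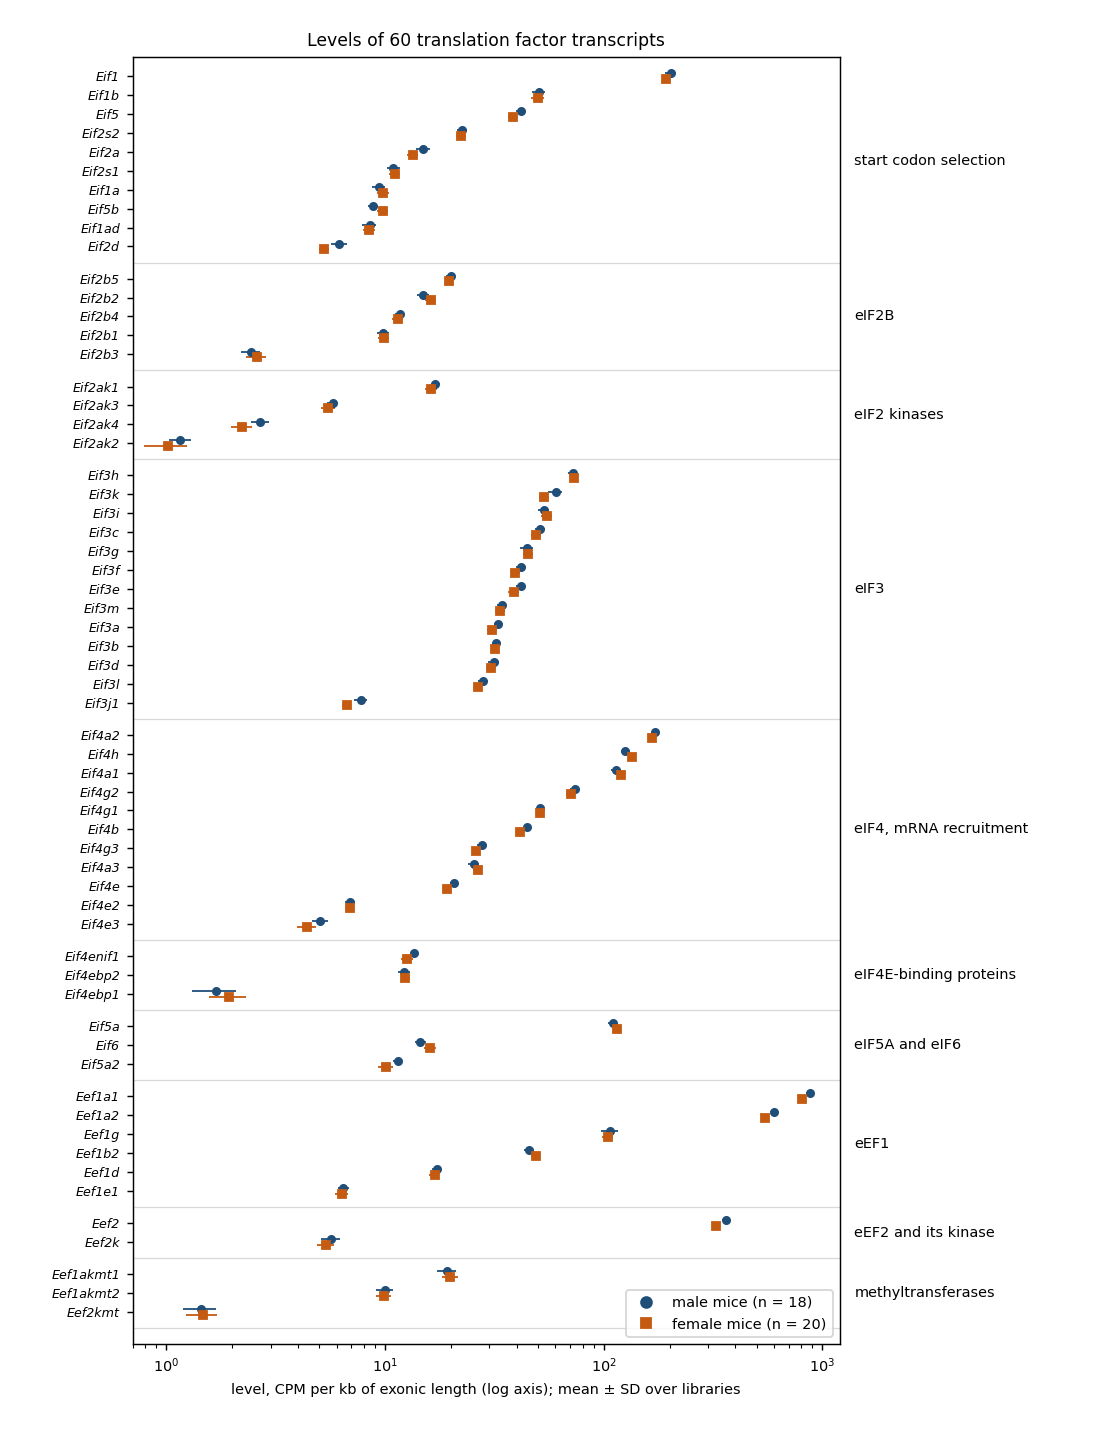
Level of each of the 60 members in CPM per kb of exonic length (log axis), as mean ± SD over 18 male libraries (circles) and 20 female libraries (squares), in groups by role. Eef1a1, Eef1a2 and Eef2 stand above 300 CPM per kb in both sexes, and Eif2ak2, Eef2kmt and Eif4ebp1 below 2.

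The transcripts were steady between libraries of the same group. The SD of log2 CPM within groups had a median of 0.0805 over members in males and 0.0784 in females, against 0.113 and 0.110 over all 12969 and 12709 genes with a mean of at least 50 counts. Most members are abundant, and abundant genes vary less. Set beside genes of like count (within 1.5-fold), 39 of 60 members were below the typical SD in males and 39 in females. The same share over all genes is not given here, and these counts were not tested. The steadiest members were Eif4g1 (SD 0.0524 in males, 0.0362 in females), Eif4a2 (0.0416 and 0.0511) and Eef2 (0.0574 and 0.0383). The most variable were Eif4ebp1 (0.348 and 0.300), Eif2ak2 (0.175 and 0.312) and Eef2kmt (0.208 and 0.256), the 3 members of lowest count.

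Some members and ribosomal protein genes deviated together from library to library. Each library was expressed as its deviation from its group mean in log2 CPM. The 5 relations given were chosen after the values were seen, so they are described without a test. Eef1b2, the nucleotide exchange subunit of eEF1, moved with the median of the 75 ribosomal protein genes (r = 0.733, rho = 0.775 over 38 libraries). Its r was 0.695 without the 2 libraries farthest from the median, 0.781 among males (n = 18) and 0.740 among females (n = 20). The median of the 13 eIF3 subunits and the same ribosomal protein median had r = 0.595 and rho = 0.596, with r of 0.539 without the 2 farthest libraries, 0.664 in males and 0.616 in females. For Eef1a1 and Eef2, r was 0.523 and rho 0.517, with r of 0.488 without the 2 farthest libraries, 0.535 in males and 0.528 in females. The 2 paralogs Eef1a1 and Eef1a2 lay near 0 (r = −0.00489, rho = 0.0822), with r of −0.0771 without the 2 farthest libraries, −0.0381 in males and 0.0370 in females. Eif4a1 and Eif4a2 had r = 0.188 and rho = 0.213, with r of 0.152 without the 2 farthest libraries, −0.0644 in males and 0.403 in females. Without the 3 libraries of high Cdhr1 (34 libraries, as the lone male mutant NS library then has no deviation) the 5 values of r were 0.714, 0.561, 0.531, −0.0261 and 0.227 in the order given. Without male mutant CVS replicate 1 they were 0.728, 0.603, 0.523, −0.0119 and 0.165. Values of 1 library share its total and scaling factor, and the part of tissue composition or RNA quality in these relations was not tested.

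**Figure D2:**
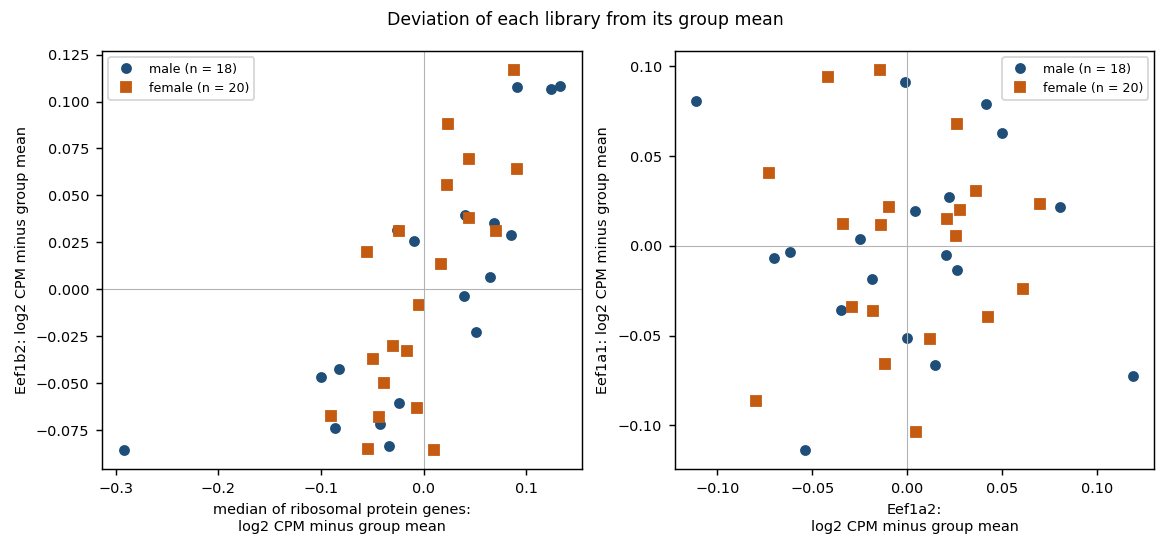
Deviation of each library from its group mean in log2 CPM, Eef1b2 against the median of ribosomal protein genes (left) and Eef1a1 against Eef1a2 (right), males as circles (n = 18) and females as squares (n = 20). The left points rise together (r = 0.733), and the right points show no slope (r = −0.00489).

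The first question of the design was whether 21 days of stress altered these transcripts. With edgeR's quasi-likelihood test and Benjamini-Hochberg adjustment over all genes, 0 of 60 members passed an adjusted p of 0.05 in any stress comparison. Averaged over both sexes and genotypes, CVS against NS called 0.017% of 17671 genes, and 5 members had an unadjusted p under 0.05 (8.33%, against 9.37% of all genes). The median change of members was −0.00242 on the log2 scale, against 0.00279 for all genes tested. The median absolute change was 0.0205, against 0.0430 for all genes. The 95% interval of 59 of 60 members lay inside a 1.25-fold change in either direction, and the exception was the low-count Eef2kmt (12.7%, interval 0.375 to 26.6%, adjusted p = 0.516). Limma voom also called 0 members with 5 at an unadjusted p under 0.05, and DESeq2 called 1, Eif4g2.

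Eif4g2, an eIF4G relative that lacks the eIF4E-binding region and serves cap-independent initiation, came nearest to a stress difference. In female controls it had 519.6, 569.3, 513.6, 522.0 and 561.6 CPM under CVS, against 583.2, 599.9, 600.6, 578.1 and 576.7 CPM without stress. Every stressed female control lay below every unstressed one. The share of all genes separated in this way is not given here, and Eif4g2 was named for its small p. In this comparison 8.72% of all genes had an unadjusted p under 0.05 in edgeR. In female mutants it had 546.3, 541.1, 568, 527.5 and 586.1 CPM under CVS, against 573.8, 636.2, 590.2, 582.7 and 573.4 CPM without stress, and only the highest stressed library reached into the unstressed range. Male mutants had 574.4, 580.2, 559.2 and 529.9 CPM under CVS, against 626.2, 573.2 and 555.6 CPM without stress. Male controls lay between 570.1 and 607.4 CPM under CVS, with a median of 596.6, against 622.4, 633.0, 619.4, 588.3 and 591.0 CPM without stress. In both male genotypes the ranges overlapped.

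The pooled log2 fold change of Eif4g2 was −0.08 ± 0.0191 (SE), a difference of −5.43% with a 95% interval of −7.91 to −2.89%. Its p was 1.04e-04, and the adjusted p over all genes was 0.108 in edgeR and 0.0824 in limma voom, so neither called it. DESeq2 called it (−0.08, adjusted p = 0.0211), and so did edgeR without the 3 libraries of high Cdhr1 (−0.11, adjusted p = 0.0167), which leaves a single male mutant NS library that is assumed to vary like the other groups. Without male mutant CVS replicate 1 the adjusted p was 0.106. Over the other alternatives, with each library left out in turn, it lay between 0.0598 and 0.333. By comparison the log2 fold change was −0.13 ± 0.0364 in female controls (adjusted p = 0.320), −0.09 ± 0.0364 in female mutants (0.502), −0.06 ± 0.0453 in male mutants (1) and −0.04 ± 0.0359 in male controls (0.829). The female minus male difference of the stress effect was −0.06 ± 0.0382 (interval −0.14 to 0.01, adjusted p = 0.742).

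The other 4 members with a pooled unadjusted p under 0.05 followed. Eef2k was 0.11 ± 0.0402 in log2 fold change (7.70%, interval 1.82 to 13.9%, adjusted p = 0.404). In male mutants it had 38.9, 44.7, 42.6 and 37.5 CPM under CVS, against 38.8, 36.5 and 33.9 CPM without stress. In male controls it ranged from 38.2 to 48.0 CPM under CVS with a median of 40.6, against 36.7, 36.3, 33.3, 42.8 and 34.8 CPM without stress. The male ranges overlapped through 1 unstressed library in each genotype. Female mutants had 38.4, 39.1, 41.6, 36.9 and 35.9 CPM under CVS, against 41.8, 32.9, 36.7, 38.3 and 33.6 CPM without stress. Female controls had 32.2, 41.4, 34.3, 34.3 and 43.1 CPM under CVS, against 35.4, 39.2, 33.8, 41.6 and 35.2 CPM without stress, and here the ranges overlapped throughout. The log2 fold change was 0.19 ± 0.0660 in male controls (adjusted p = 0.571) and 8.84e-04 ± 0.0757 in female controls (0.997), and the sex difference of the stress effect was −0.15 ± 0.0803 (adjusted p = 0.718).

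Eif2s1 was −0.07 ± 0.0292 (−4.84%, interval −8.64 to −0.893%, adjusted p = 0.438), Eif1b was 0.07 ± 0.0305 (5.05%, interval 0.676 to 9.61%, adjusted p = 0.472), and Eef2kmt is given above. By role, 0 of 4 eIF2α kinases, 0 of 5 eIF2B subunits, 0 of 13 eIF3 subunits and 0 of 3 eIF4E-binding proteins had an unadjusted p under 0.05 in the pooled stress comparison. Eif2ak3 was −4.97e-04 ± 0.0344 (interval −4.72 to 4.88%), Eif4e −0.01 ± 0.0225 (interval −3.57 to 2.65%) and Eif4ebp2 −0.01 ± 0.0262 (interval −4.41 to 2.82%).

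Within groups the stress comparisons gave the same picture of counts. In male mutants 0% of 17212 genes were called, and 1 member had an unadjusted p under 0.05 (1.67%, against 3.38% of all genes), Eif4a1 at 0.13 ± 0.0550 (adjusted p = 1). Male controls called 0.0116% of genes and had 3 such members (5.00%, against 7.39%), namely Eef2k, Eif2s1 (−0.13 ± 0.0559, adjusted p = 0.653) and Eef2 (−0.08 ± 0.0362, 0.663). Female mutants called 0% of 16435 genes and had 2 such members (3.33%, against 7.91%), Eif5a at 0.09 ± 0.0359 (0.509) and Eif4g2. Female controls called 0% and had 3 such members (5.00%, against 8.72%), Eif4g2, Eef1g at 0.13 ± 0.0464 (0.405) and Eif2b5 at −0.10 ± 0.0449 (0.550). Beyond these, the 2 smallest p in each direction took in Eef2kmt (0.38 ± 0.188) and Eif4e3 (−0.19 ± 0.0992) in male mutants, Eif5 (0.08 ± 0.0405) in male controls, Eif3i (0.09 ± 0.0512) and Eif2s2 (−0.10 ± 0.0503) in female mutants and Eif1b (0.09 ± 0.0547) in female controls, with adjusted p from 0.640 to 1. The 95% interval stayed inside 1.25-fold for 54 members in male mutants, 58 in male controls, 57 in female mutants and 56 in female controls. DESeq2 and limma voom called 0 members in these 4 comparisons, with 1 to 4 at an unadjusted p under 0.05.

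**Figure D3:**
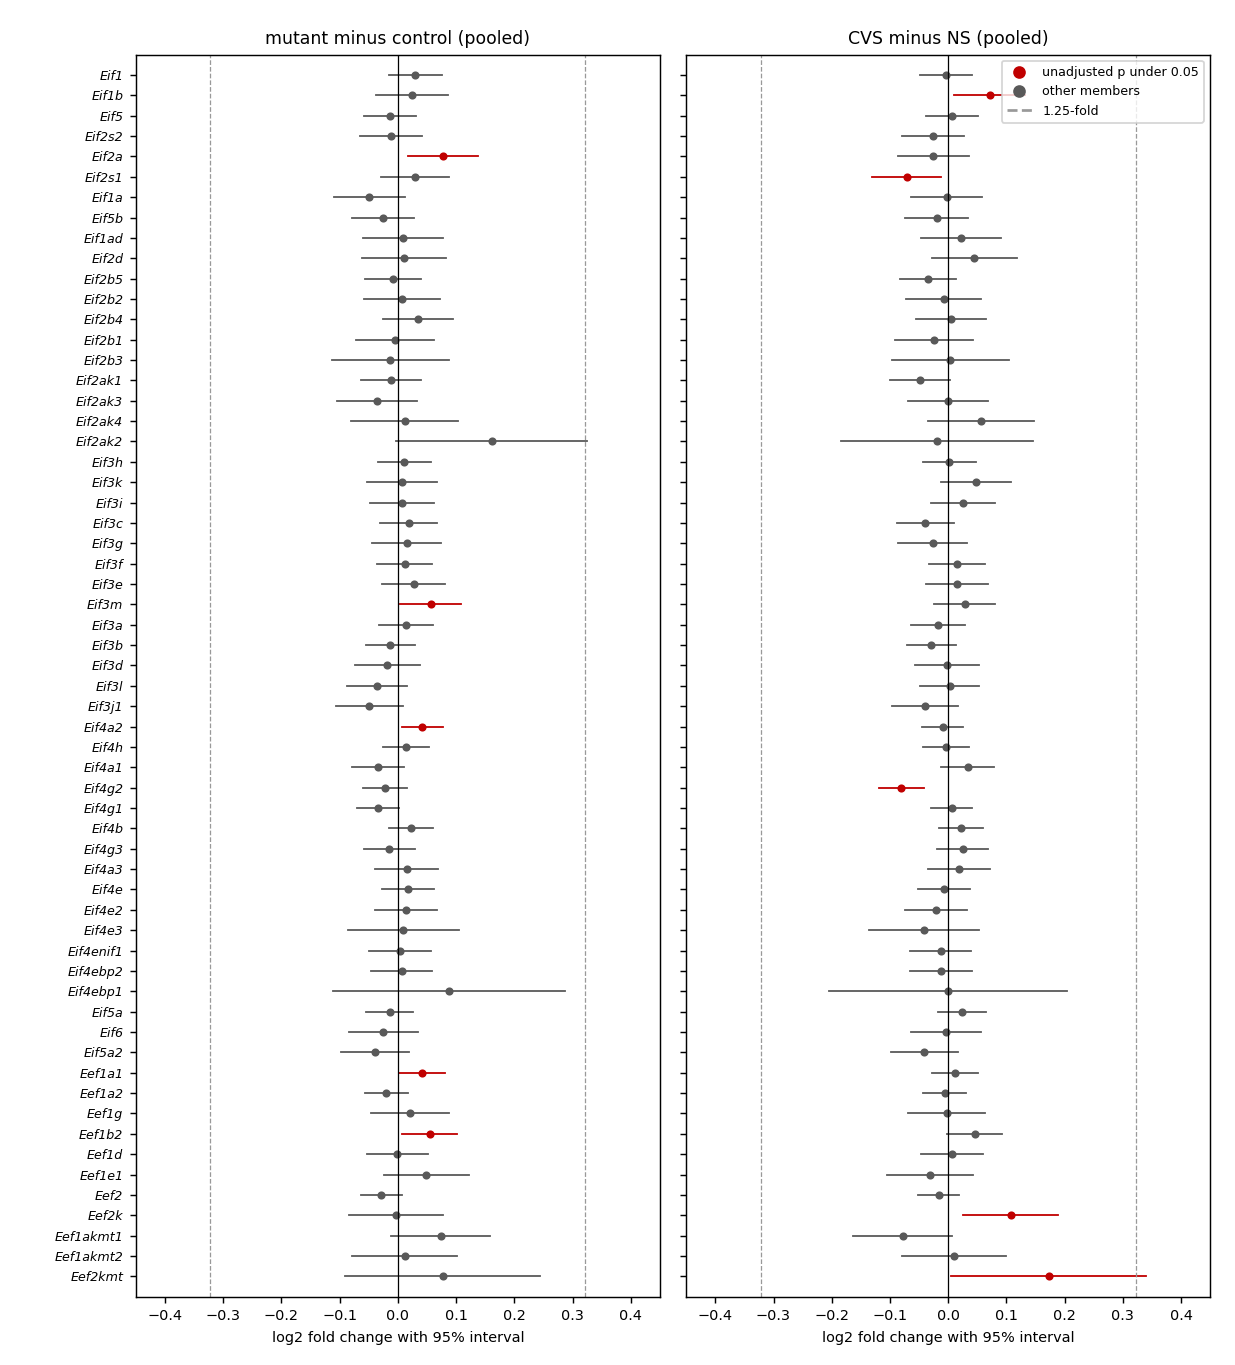
Log2 fold change with 95% interval of each of the 60 members, mutant minus control (left) and CVS minus NS (right), averaged over sexes and the other factor. Dashed lines mark a 1.25-fold change, red marks an unadjusted p under 0.05, and no member passed the adjustment in edgeR. Eif4g2 has the lowest stress value (−0.08), and the wide intervals belong to members of low count.

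The second question was whether the genotype altered these transcripts. Mutant against control, averaged over sexes and stress states, called 1.09% of 17671 genes and 0 of 60 members. At an unadjusted p under 0.05 stood 5 members (8.33%, against 11.2% of all genes), with 7 in DESeq2 and 6 in limma voom, which also called 0. All 5 were positive. The median change of members was 0.00881, against −9.43e-05 for all genes, and the median absolute change was 0.0183, against 0.0436. Of 60 intervals 59 lay inside 1.25-fold, and the exception was Eif2ak2 (11.8%, interval −0.24 to 25.3%, adjusted p = 0.462).

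Eif2a, a factor for initiation at alternative start codons and not a subunit of eIF2, had the lowest adjusted p (0.08 ± 0.0301, 5.49%, interval 1.15 to 10%, adjusted p = 0.269). Under CVS, male mutants had 34.3, 35.1, 34.8 and 34.5 CPM, against 29.1 to 37.2 CPM with a median of 34.5 in male controls. Without stress, male mutants had 39.2, 34.4 and 36.9 CPM, against 31.5, 31.6, 33.4, 35.4 and 32.7 CPM in male controls. The mean of unstressed mutants was the higher one with ranges that overlapped, and the stressed mutants lay within the control range. Female mutants had 29.9, 29.4, 32.1, 33.1 and 31.8 CPM under CVS, against 30.9, 30.4, 29.1, 28.2 and 28.7 CPM in controls. Without stress they had 32.0, 30.5, 33.3, 31.4 and 29.6 CPM, against 31.4, 29.6, 27.7, 31.2 and 33.8 CPM in controls, and both pairs of female groups overlapped. Without male mutant CVS replicate 1 the pooled value was 0.08 (adjusted p = 0.294), and without the 3 libraries of high Cdhr1 it was 0.11 (adjusted p = 0.202).

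The other 4 were Eif4a2 (0.04 ± 0.0175, adjusted p = 0.319), Eef1b2 (0.05 ± 0.0237, 0.35), the eIF3 subunit Eif3m (0.06 ± 0.0261, 0.392) and Eef1a1 (0.04 ± 0.0196, 0.409). Their differences ran from 2.92 to 4%. On the negative side the smallest p belonged to Eif4g1 (−0.03 ± 0.0177, adjusted p = 0.468) and Eif3j1 (−0.05 ± 0.0284, 0.551). Without the 3 libraries of high Cdhr1 1 member had an unadjusted p under 0.05. The summed oligodendrocyte markers (5 of 5 above 1 CPM in every group) had lower medians in mutants of both sexes. In males they ranged from 939.5 to 1615 CPM in mutant CVS and from 952 to 1610 in mutant NS libraries, against 1150 to 1689 in control CVS and 1288 to 1557 in control NS libraries. Female medians were 1048 CPM in mutants against 1065 in controls under CVS, and 1002 against 1160 without stress. Summed somatostatin neuron markers (3 of 4 above 1 CPM in every group) had higher medians in mutants. These were 244.8 against 211.5 CPM (CVS) and 252.9 against 220.1 (NS) in males, and 234.9 against 219.3 and 233.5 against 209.7 in females. Summed markers of all GABAergic neurons went the other way, with lower medians in mutants. These were 532.5 against 545.7 CPM (CVS) and 533.1 against 545 (NS) in males, and 475 against 490.7 and 462.7 against 513.1 in females. Medians of the glutamatergic neuron markers were lower in female mutants and higher in male mutants than in controls. The part of these marker sets in the values of the members was not tested.

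Without stress, male mutants differed from controls in 0.0174% of 17212 genes. A single member (1.67%, against 6.13% of all genes) had an unadjusted p under 0.05, Eif2a (0.16 ± 0.0697, adjusted p = 0.779). Under stress 0.0523% of genes were called and 3 members (5.00%, against 7.62%) had such a p: Eif4h (0.09 ± 0.0400, 0.634), Eef2kmt (0.32 ± 0.156, 0.655) and Eif4g2 (−0.08 ± 0.0383, 0.649). Female mutants without stress differed in 0.128% of 16435 genes, with 3 such members (5.00%, against 8.07%), Eif4a2 (0.08 ± 0.0348, 0.552), Eif3m (0.11 ± 0.0536, 0.595) and Eif5a (−0.08 ± 0.0359, 0.544). Female mutants under stress differed in 0.0243% of genes, with 3 such members (5.00%, against 7.08%), Eif1 (0.09 ± 0.0345, 0.588), Eif4ebp2 (0.10 ± 0.0450, 0.636) and Eif5 (−0.10 ± 0.0423, 0.636). Beyond these, the 2 smallest p in each direction took in Eif2ak4 (0.18 ± 0.0915), Eif2ak1 (−0.11 ± 0.0541) and Eif5b (−0.10 ± 0.0555) in unstressed males, Eif3j1 (−0.12 ± 0.0613) in stressed males, Eif6 (−0.11 ± 0.0557) in unstressed females and Eef1a2 (−0.06 ± 0.0318) in stressed females, with adjusted p from 0.645 to 0.876. The unstressed male mutants include libraries of high Cdhr1. Without the 3 libraries of high Cdhr1 the unstressed male values shrank to 0.04 for Eif2ak4 and −0.008 for Eif5b. They grew to −0.18 for Eif2ak1 and 0.25 for Eif2a, in a fit with a lone unstressed male mutant library. With all libraries, between 55 and 57 members per comparison had an interval inside 1.25-fold. DESeq2 and limma voom called 0 members in these 4 comparisons, with 1 to 4 at an unadjusted p under 0.05.

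**Figure D4:**
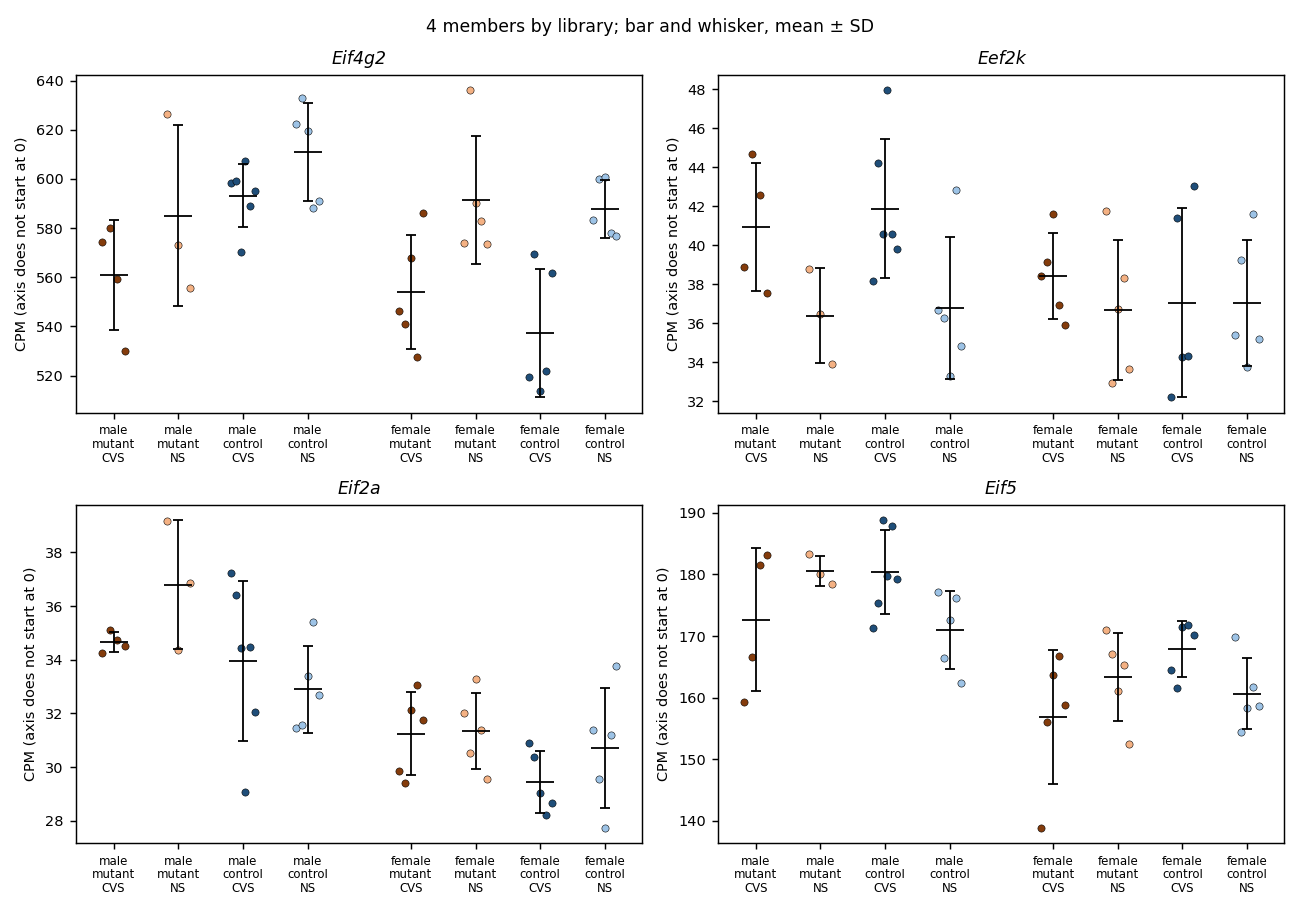
CPM of Eif4g2, Eef2k, Eif2a and Eif5 in each library by group, males left and females right, with mean ± SD as bar and whisker on axes that do not start at 0. Stressed female controls lie at 513.6 to 569.3 CPM of Eif4g2, below the unstressed ones at 576.7 to 600.6, and the other stress pairs overlap for Eif4g2.

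The third question was whether stress acted differently in the 2 genotypes. The interaction (stress difference in mutants minus stress difference in controls), averaged over the sexes, called 0% of 17671 genes, and 3 members had an unadjusted p under 0.05 (5.00%, against 4.96% of all genes). Eif5 had the smallest p (−0.13 ± 0.0445, interval −0.22 to −0.04, adjusted p = 0.917 in edgeR). In male mutants Eif5 had 159.3, 166.6, 181.6 and 183.1 CPM under CVS, against 183.3, 180.0 and 178.5 CPM without stress. In male controls it ranged from 171.3 to 188.8 CPM under CVS with a median of 179.5, against 177.1, 166.4, 172.6, 176.1 and 162.4 CPM without stress. The male mean was lower under stress in mutants and higher under stress in controls, with overlapping ranges.

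Female mutants had 138.9, 156.1, 163.7, 166.7 and 158.8 CPM of Eif5 under CVS, against 171.0, 167.1, 161.1, 165.3 and 152.4 CPM without stress. Female controls had 164.5, 161.6, 171.4, 171.8 and 170.2 CPM under CVS, against 169.9, 154.5, 158.3, 161.8 and 158.7 CPM without stress. The interaction had the same sign in both sexes, −0.14 ± 0.0652 in males (adjusted p = 0.995) and −0.12 ± 0.0599 in females (adjusted p = 1). The exon junction helicase Eif4a3 (0.15 ± 0.0535, adjusted p = 0.917) and the eIF2B subunit Eif2b3 (−0.21 ± 0.1002, 0.931) were the other 2, and Eif4h (0.07 ± 0.0397) had the next smallest positive p. Within males the interaction called 0% of 17212 genes, with 3 members at an unadjusted p under 0.05 (5.00%, against 4.18%), Eif5, Eif4a3 (0.19 ± 0.0838) and Eif4h (0.13 ± 0.0605), and Eif4e3 among the next on the negative side (−0.20 ± 0.126), all at an adjusted p of 0.995. Within females it called 0% of 16435 genes, with 1 such member (1.67%, against 4%), Eif5, and the 2 smallest p in each direction also took in Eef1g (−0.11 ± 0.0656), Eif5a (0.07 ± 0.0507) and Eif2b5 (0.09 ± 0.0635), all at an adjusted p of 1. DESeq2 and limma voom called 0 members, with 3 at an unadjusted p under 0.05 in the pooled and male interactions and 0 in the female one.

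The last question was whether the sexes differed in these effects, each taken within a sex and then subtracted. The stress effect differed in 0% of 17671 genes, and 4 members had an unadjusted p under 0.05 (6.67%, against 7.18% of all genes). They were Eef1g (0.15 ± 0.0654, adjusted p = 0.671), Eef1a2 (0.08 ± 0.0367, 0.685), Eif4a1 (−0.12 ± 0.0449, 0.596) and Eif1a (−0.15 ± 0.0608, 0.657). The genotype effect differed in 0.00566% of genes, with 5 such members (8.33%, against 8.01%). They were Eif4g2 (0.09 ± 0.0382, adjusted p = 0.528), the kinase Eif2ak1 (0.12 ± 0.0508, 0.578), the subunit joining factor Eif5b (0.12 ± 0.0535, 0.582), Eif4ebp2 (0.11 ± 0.0524, 0.621) and Eef1a2 (−0.08 ± 0.0367, 0.612), with Eif6 next on the negative side (−0.12 ± 0.0596, 0.626). DESeq2 and limma voom called 0 members in both, with 4 to 6 at an unadjusted p under 0.05. Sex and the make-up of the libraries, which differs between the sexes as given above, cannot be told apart in these differences.

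Ratios of paralogs within a library do not depend on its scaling, and 8 were tested in each sex for genotype and for stress by an exact permutation test, two-sided, with arrangements kept within the other factor. After adjustment over the 32 tests 0 passed, and 5 had an unadjusted p under 0.05. The lowest belonged to the Eef1a pair in females. The log2 ratio of Eef1a1 to Eef1a2 (CPM) averaged 0.41 ± 0.0563 in mutants and 0.30 ± 0.0796 in controls (SD, n = 10 each), a difference of 0.11 (exact permutation p = 0.004, adjusted 0.0922). Under CVS it was 0.402, 0.400, 0.326, 0.389 and 0.521 in mutants, against 0.214, 0.331, 0.190, 0.324 and 0.434 in controls. Without stress it was 0.458, 0.411, 0.352, 0.396 and 0.461 in mutants, against 0.422, 0.304, 0.263, 0.256 and 0.303 in controls. The mutant mean was higher in both stress states, by 0.11 each, and the ranges overlapped in both. In males the difference was 0.02 (exact permutation p = 0.673, adjusted 0.908).

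The helicase pair Eif4a1 over Eif4a2 followed, with −1.36 ± 0.0646 in female mutants and −1.28 ± 0.0584 in female controls (n = 10 each), a difference of −0.09 (exact permutation p = 0.00576, adjusted 0.0922). Under CVS it was −1.39, −1.37, −1.34, −1.26 and −1.38 in mutants, against −1.23, −1.31, −1.25, −1.24 and −1.40 in controls. Without stress it was −1.33, −1.51, −1.36, −1.34 and −1.35 in mutants, against −1.32, −1.25, −1.20, −1.31 and −1.26 in controls, and here the groups did not overlap. In males the difference had the same sign (−0.06, exact permutation p = 0.201, adjusted 0.643). The other 3 were Eif2ak1 over Eif2ak4 for stress in females (−0.17, exact permutation p = 0.0124, adjusted 0.132) and for genotype in males (−0.16, exact permutation p = 0.0349, adjusted 0.223), and Eif5a over Eif5a2 for stress in females (0.15, exact permutation p = 0.0196, adjusted 0.157). The male genotype difference of Eif2ak1 over Eif2ak4 was −0.29 without stress, where the mutants include libraries of high Cdhr1, and −0.03 under CVS. Without the 3 libraries of high Cdhr1, and likewise without male mutant CVS replicate 1, 0 of the 32 tests passed. Of the Eef1a and Eif4a ratios in females, both passed without female control CVS replicate 5 (lowest adjusted p = 0.0156), the first alone passed without female control NS replicate 1 (0.0353), and Eif5a over Eif5a2 for stress passed without female control NS replicate 3 (0.0343). Per kb, Eef1a1 exceeded Eef1a2 by 1.47 times in males and 1.49 times in females, and Eif4a1 stood at 0.665 and 0.722 times Eif4a2.

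**Figure D5:**
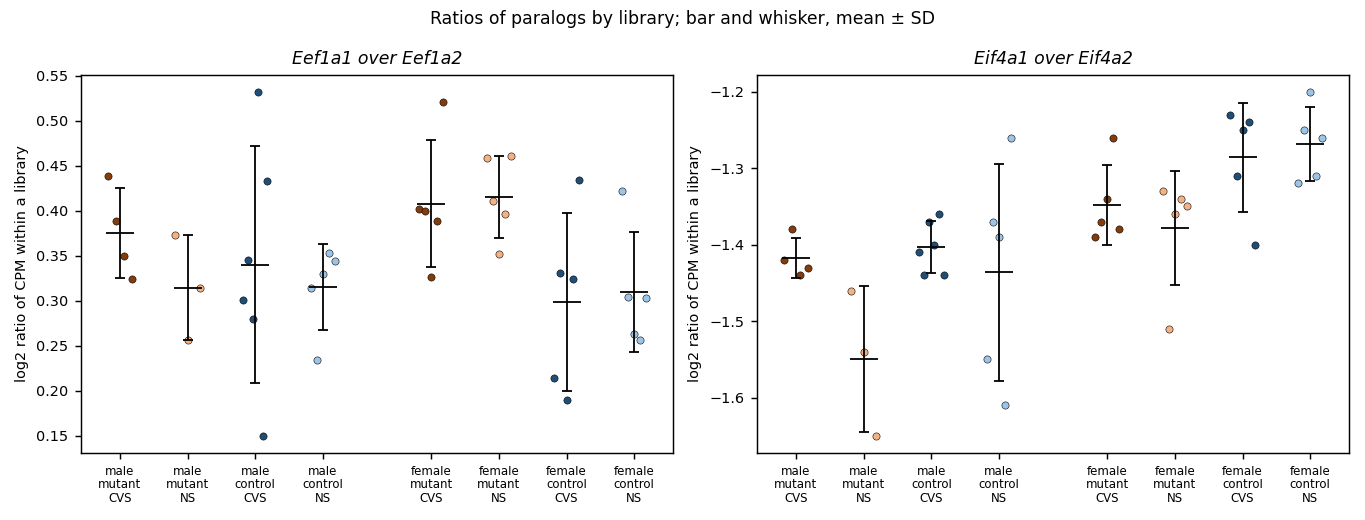
Log2 ratio of CPM within each library for Eef1a1 over Eef1a2 (left) and Eif4a1 over Eif4a2 (right), by group, with mean ± SD as bar and whisker. Female mutants average 0.41 against 0.30 in female controls for the first ratio and −1.36 against −1.28 for the second, and neither difference passed the adjustment over 32 tests.

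Other genes of the pathway were read from the same fits, and 0 members of any list were called in any of the 15 comparisons. The 75 ribosomal protein genes had medians from −0.048 (male stress in controls) to 0.113 (female stress in mutants). In the pooled genotype comparison 74 of 75 were positive (median 0.0501, against 0.00881 for the translation factors). For genotype under stress, 74 were positive in males (median 0.103) and 71 in females (0.0737). For genotype without stress, 38 were positive in males (0.00204) and 51 in females (0.0196). The share of positive signs over all genes is not given here. Genes measured in the same libraries are not independent, so a count of signs is a description. Of the targets of the integrated stress response, such as Atf4 and Asns, 11 or 12 gene IDs were tested, with medians from −0.134 (male genotype without stress) to 0.184 (male interaction). Both of these comparisons use the male mutant NS group, which holds libraries of high Cdhr1. In the pooled interaction, which also uses that group, all 12 tested were positive (median 0.110), against 39 of the 60 translation factors (median 0.0155). In the female interaction, which does not use it, 9 of 11 targets were positive (median 0.122). For the 8 genes of termination and recycling the medians ran from −0.0421 to 0.0328, for 9 mitochondrial translation factors from −0.0739 to 0.0562, and for 17 genes of the mTORC1 pathway from −0.022 to 0.0303. The 20 cytosolic aminoacyl-tRNA synthetases ran from −0.0595 to 0.0393, and 10 genes for the modification of elongation factors from −0.0236 to 0.0857. Over the same 15 comparisons the median of the 60 translation factors lay between −0.0147 (male stress in controls) and 0.0192 (female genotype under stress). In the male interaction it was 0.0166, but 0.0546 without the 3 libraries of high Cdhr1 and 0.0334 without male mutant CVS replicate 1. Medians of the other lists are given with all libraries only.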

How the data were processed

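The authors deposited raw counts per gene, without normalization, for 38 libraries. Per the submitters' processing notes, the tools were fastp 0.23.2, STAR 2.7.10b and featureCounts, and the build was GRCm39. Neither annotation release nor strand setting is stated in the labels used here. Reads of antisense partners and of near-identical copies, known for Eef1a1, may therefore be split or merged. Symbols came from a gene table for 52029 IDs, and lengths from GENCODE vM21 (GRCm38). The 74 replicate pairs were checked for copies and 0 were identical.

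EdgeR 4.0.16 quasi-likelihood models (R 4.3.3, TMM, robust, filterByExpr with a minimum count of 10 and total of 15) were fitted to 4 groups within each sex (17212 and 16435 genes) and to 8 groups for pooled and sex comparisons (17671 genes). The scripts were tested on simulated data. Standard errors are absolute log2 fold changes over the square root of F. DESeq2 1.42.0 and limma 3.58.1 voom were alternatives, as were RLE factors, no filter, removal of dominant transcripts, leaving out each library, and leaving out 3 libraries of high Cdhr1. Permutations used Python 3.11.15. Within a comparison without calls, the 2 members of smallest p in each direction were named, with further members chosen for their role, level or spread. The members and lists were chosen with earlier results of these data known. Replicates carry separate names in the labels, which do not say whether they are separate animals, so p-values measure only the spread between these libraries.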

Additional observations from a re-analysis of the deposited data

Results flagged for a closer look

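Each named member was checked in every group of at least 4 libraries for a library far from the others. The measure was the gap from that library to its nearest neighbour over the group's range. The male mutant NS group, with 3 libraries, was below that size and was not checked. Of 252 such checks over 36 members 12 met the criterion (4.76%), near the 1 in 20 that chance gives. High values were Eef2kmt at 4.173 CPM in female mutant CVS replicate 4 (nearest 3.186), Eif1b at 57.44 CPM in male mutant CVS replicate 3 (50.75), Eif4g2 at 636.2 CPM in female mutant NS replicate 2 (590.2) and Eif4h at 389.9 CPM in female mutant NS replicate 1 (363.7). In controls they were Eif1a at 48.11 CPM in female control NS replicate 1 (42.12), Eif4a1 at 236.5 CPM in female control NS replicate 3 (216.2), Eif5a at 295.4 CPM in female control CVS replicate 4 (277.3) and Eif6 at 44.78 CPM in female control CVS replicate 5 (39.13). Low values were Eef2kmt at 2.457 CPM in female control NS replicate 4 (nearest 3.141), Eif1 at 226.0 CPM in male control CVS replicate 3 (263.7), Eif4g1 at 295.5 CPM in male control CVS replicate 4 (309.2) and Eif5a2 at 45.92 CPM in female control CVS replicate 1 (50.73). The 12 values fell in 12 different libraries.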

How the results depend on the processing

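Of 2900 alternative values for 96 results, 2892 kept their direction and side of the threshold or stayed within the spread, and 0 reversed. As 0 members were called at the start, no call could be lost, and the tally does not measure how far values moved. Among values counted as kept, Eif5b in the male genotype comparison without stress went from −0.0988 to −0.008 without the 3 libraries of high Cdhr1. Eif2ak1 there grew from −0.11 to −0.18. The count of members called in the pooled stress comparison was 0 and became 1 (Eif4g2) with DESeq2 (−0.08, adjusted p = 0.0211) and without the 3 libraries of high Cdhr1 (−0.11, adjusted p = 0.0167). Without those libraries the median of members in the male interaction was 0.0546, against 0.0166. The number of paralog ratios passing was 0, and 0 to 2 when 1 library was left out. The relations, and the ratios without the 3 libraries of high Cdhr1, were recomputed as alternatives chosen after seeing the data. The cause of these shifts was not tested. Other scalings moved the median of members by −0.0024 to 0.0096 in 45 values. No paired analysis was possible because the labels give no replicate numbers shared across groups. Eef2kmt, Eif4ebp1 and Eif2ak2 had the lowest counts and the widest intervals in the pooled stress and genotype comparisons. Eif4ebp1 in both sexes and Eif2ak2 in females also varied more than genes of like count (SD 0.348 against 0.261 in males and 0.300 against 0.243 in females for Eif4ebp1, 0.312 against 0.232 for Eif2ak2). Such a spread was not confined to members of low count. The SD of Eef2k was 0.121 against 0.094 in males and 0.138 against 0.0939 in females. That of Eef1g was 0.124 against 0.0689 in males and 0.0833 against 0.0646 in females.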
